A study of Homo sapiens with 6 samples.

Results

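Extracellular adenosine was followed through 10 genes for its production, breakdown, transport and receptors in A-498 cells, an established human renal cell carcinoma line, treated with zebularine. Zebularine, a cytidine analogue, is given to block DNA methyltransferases. The members were all probe sets that the platform annotation gives to exactly 1 of NT5E, ADA, DPP4, ADK, SLC29A1, SLC29A2, SLC29A3, ADORA1, ADORA2A and ADORA2B. This gave 15 of the 22277 probe sets on the array, for 9 of the 10 genes and of 11963 genes that have such a probe set. ADORA2A had none, since its probe set also carries a second symbol. The genes were chosen by the difference between zebularine and untreated arrays of NT5E, SLC29A3 and ADORA1, known from these same arrays. Member differences are therefore a description and carry no p-value.

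The study held 3 cultures of A-498 kept for 120 h with 1000 µM zebularine and 3 kept for 120 h without it. Each of 3 numbered experiments gave 1 treated and 1 untreated array, and the titles call the replicates biological. All cells grew as monolayers in RPMI-1640 with 10% FCS, with medium changes and splitting during the treatment. The design is limited to a single cell line and a single dose and time. RNA was hybridised to Affymetrix arrays, and each value is a MAS5 signal, a background-subtracted brightness in arbitrary units.

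Adenosine outside the cell is made in steps: ectonucleotidases such as ENTPD1 (CD39) strip ATP and ADP to AMP, and NT5E (CD73) removes the last phosphate. Adenosine then acts on G protein-coupled receptors or is carried across membranes by equilibrative nucleoside transporters of the SLC29 family, which also carry nucleoside drugs. Inside the cell ADK returns it to AMP and ADA deaminates it to inosine, and human ADA also sits on the cell surface bound to DPP4 (CD26). ADORA1 couples to inhibitory G proteins and lowers cAMP, whereas ADORA2A and ADORA2B couple to stimulatory ones and raise it. In the kidney adenosine is known for its part in tubuloglomerular feedback, which works through ADORA1.

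The 3 genes with the largest differences are shown with the 250 bases before their annotated start, because the drug acts on DNA methyltransferases, which methylate cytosine in CG. DNA methylation itself was not measured on these arrays. The sequences are from RefSeq on GRCh38.p14, plus strand, read 5′ to 3′, with each CG in capitals. They lie at chr6:85449833-85450082 for NT5E, chr10:71319009-71319258 for SLC29A3 and chr1:203127476-203127725 for ADORA1.
NT5E: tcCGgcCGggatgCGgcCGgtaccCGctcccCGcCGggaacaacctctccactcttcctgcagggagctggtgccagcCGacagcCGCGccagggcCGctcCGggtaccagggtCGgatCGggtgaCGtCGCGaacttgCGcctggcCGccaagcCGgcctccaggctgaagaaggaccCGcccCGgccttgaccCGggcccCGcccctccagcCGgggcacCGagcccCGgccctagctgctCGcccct
SLC29A3: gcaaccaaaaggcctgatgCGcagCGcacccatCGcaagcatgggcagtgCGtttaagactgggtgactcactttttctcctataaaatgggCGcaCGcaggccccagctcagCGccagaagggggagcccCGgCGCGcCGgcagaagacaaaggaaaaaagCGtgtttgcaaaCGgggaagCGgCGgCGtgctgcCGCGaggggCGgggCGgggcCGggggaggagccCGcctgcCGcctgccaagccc
ADORA1: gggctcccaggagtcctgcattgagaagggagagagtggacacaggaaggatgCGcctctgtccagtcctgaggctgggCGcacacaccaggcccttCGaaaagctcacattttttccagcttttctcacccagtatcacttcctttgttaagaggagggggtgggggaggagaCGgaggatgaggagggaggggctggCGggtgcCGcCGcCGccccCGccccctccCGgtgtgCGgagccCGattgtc
The NT5E window held 28 CG, the SLC29A3 window 23 and the ADORA1 window 12. Of 35116 RefSeq windows of this length, whose median was 11 CG, 84.1% had fewer than NT5E, 74.2% fewer than SLC29A3 and 51.5% fewer than ADORA1.

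Windows of 8 of the 10 genes were matched, 10 windows in all, and their CG count ran from 12 for ADORA1 to 41 for ADA. The letters GGGCGG, the GC box bound by SP1-type factors, were found on either strand 2 times in each of the 3 printed windows. All 10 windows, which were 57.6 to 80% G and C, held it at least 2 times. Of all windows 42.6% held it at least 1 time, and their share with 2 or more was not counted. In ADORA1 the copies lie 39 to 34 and 33 to 28 bases before the start, and in SLC29A3 the copies, at 48 to 43 and 43 to 38, share a base. The NT5E window also held TGACG, the core of the cAMP response element, 127 to 123 bases before the start, as did windows of DPP4, ADK and ADORA2B, and 21.2% of all windows hold these letters on either strand. The full palindrome TGACGTCA was found in none of the 10 windows and in 1.65% of all windows. ACGTG, the core of the hypoxia response element, was found in windows of DPP4 and SLC29A1 and in 18.5% of all windows. Such matches describe letters and are not measured binding sites.

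**Figure D1:**
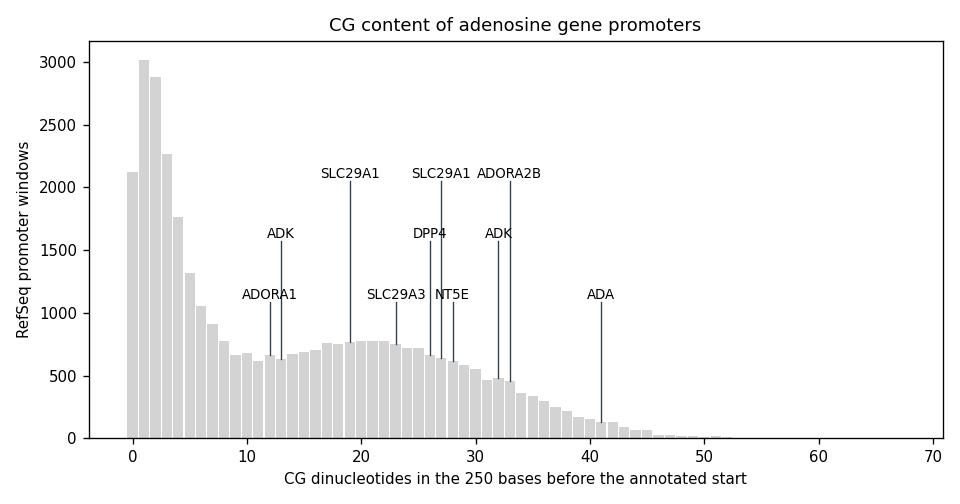
Number of CG dinucleotides in the 250 bases before the annotated start (horizontal axis) against the number of RefSeq promoter windows with that count (grey bars). Lines mark the 10 windows of the adenosine genes, from 12 for ADORA1 to 41 for ADA, with NT5E at 28 and SLC29A3 at 23, and all 10 lie above the median of 11.

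Tests were run on probe sets with 78.6 units or more on at least 3 of the 6 arrays, and a probe set passed if limma, a linear model fitted to all tested probe sets, gave it a Benjamini-Hochberg adjusted p under 0.05. Array medians ran from 126 to 134 signal units on the zebularine arrays and from 118 to 141 on the untreated arrays. In experiment 3 the brightest probe set reached only 27500 units on the zebularine array and 31176 on the untreated array, and 58719 to 62832 on the arrays of experiments 1 and 2. The median of the spike-in control probe sets was also lower in experiment 3, at 1372 on the zebularine array and 1152 on the untreated array. It was 3171 to 3799 on the arrays of experiments 1 and 2. The effect of this on the results was not tested. Of 10 markers of kidney tubule and renal carcinoma, 9 had a probe set with 1 symbol and 7 were bright enough to test, KRT18, VIM and PAX8 among them, while the tubule genes LRP2 and AQP1 were too dim. Their summed signal, nearly all from VIM and KRT18, was 39572 to 57428 in zebularine and 45283 to 60719 in untreated cultures. The sum joins genes whose means differed in opposite directions. KRT18 had means of 14950 in zebularine and 18806 in untreated cultures, and VIM 27971 and 23873, with overlapping groups for both. The tubule peptidase gene MME, picked after its values were seen, stood at 74.1, 15.2 and 86.4 in zebularine and 227, 127 and 197 in untreated cultures. Its groups did not overlap, as was the case for 17.6% of all tested probe sets. By their means PAX8, PAX2, KRT8 and KRT18 were also lower in zebularine cultures, whereas VIM and CDH2 were higher. Of 13 markers of leukocytes, endothelium, red cells and fibroblasts, 11 had such a probe set and only ITGAM was bright enough to test. Their summed signal was 530.5 to 743 in zebularine and 398 to 585 in untreated cultures, and the part of other cells in the results was not tested. In bulk RNA, fewer cells that express a gene and less RNA per cell cannot be told apart.

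NT5E, which makes adenosine from AMP, was much brighter after zebularine. Its probe set 203939_at stood at 961, 1071 and 1298 signal units in zebularine cultures of experiments 1, 2 and 3, against 316, 135 and 156 in untreated cultures. Every treated array was above every untreated array. The means were 1109.9 ± 172 in zebularine and 202 ± 98.9 in untreated cultures (SD, n = 3 each), a 5.49-fold ratio of means. Within experiments 1, 2 and 3 the ratio was 3.04, 7.93 and 8.33, so it was smallest in experiment 1, where the untreated culture was brightest. On the log2(signal + 16.34) scale the difference was 2.44 ± 0.32 (standard error, limma), the 11th highest of 13545 tested probe sets. Here and below, standard errors come from a fit that did not use the pairing of arrays by experiment. With the experiment as a block, that of NT5E was 0.29.

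The enzymes and anchor that remove adenosine showed no such separation. ADA, the deaminase, stood at 852, 333 and 620.2 signal units in zebularine cultures, against 1028, 836 and 858 in untreated cultures, at its brighter probe set 204639_at. The treated array was dimmer in each experiment, yet the groups overlapped, because zebularine 1 lay above untreated 2. The log2 difference was -0.67 ± 0.32, and that of the other ADA probe set, 216705_s_at, was -0.20 ± 0.30, with 738, 426 and 381 signal units in zebularine and 701, 524 and 499 in untreated cultures. Neither passed the fit.

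DPP4, the surface peptidase that anchors ADA, had 3 probe sets whose experiments did not run the same way. At the brightest, 203717_at, signals were 968, 1144 and 1715 in zebularine and 1129, 1178 and 1203 in untreated cultures, a log2 difference of 0.08 ± 0.26. At 203716_s_at they were 314, 864 and 1538 in zebularine and 371, 1278 and 495 in untreated cultures, a difference of 0.27 ± 0.52. Experiment 3 gave the highest value at each probe set, 0.51, 1.60 and 1.32 for 203717_at, 203716_s_at and 211478_s_at, whereas experiment 2 gave -0.04, -0.56 and -0.52. The mean of 211478_s_at was 0.32 ± 0.43. Leaving out both arrays of experiment 3 turned all 3 means negative, down to -0.39 at 203716_s_at.

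ADK, the kinase that returns adenosine to AMP, did not pass at either of its probe sets. Its brighter probe set 204119_s_at stood at 805, 1312 and 1351 signal units in zebularine cultures, against 664, 1344 and 747 in untreated cultures. The groups overlapped and the log2 difference was 0.36 ± 0.32. Leaving out 1 array moved it between 0.16, without untreated 1, and 0.66, without untreated 2. The dimmer probe set 204120_s_at, at 81.1 to 216 units on all arrays, gave 0.40 ± 0.43 and its treated array was the brighter in each of the 3 experiments.

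**Figure D2:**
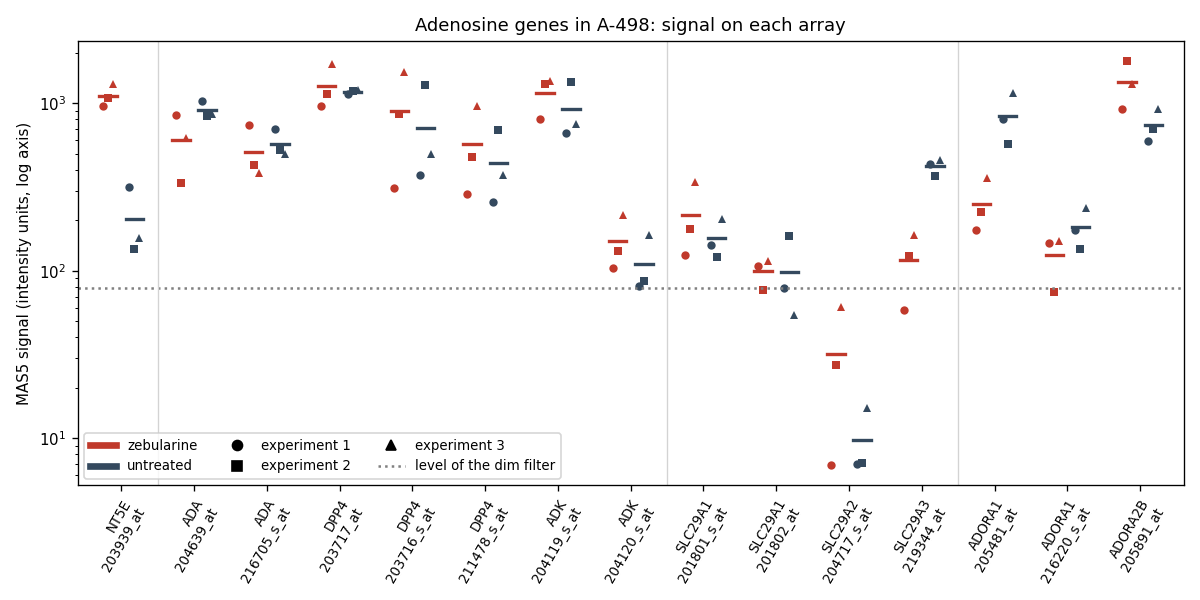
MAS5 signal (log axis) of the 15 probe sets on each of the 6 arrays, ordered as production, breakdown, transport and receptor genes, with zebularine cultures (red) left of untreated cultures (dark). Marker shapes are experiments, short lines are group means and the dotted line is the filter level of 78.6 units. NT5E, SLC29A3 and ADORA1 at 205481_at are the only probe sets whose groups do not overlap.

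Among the transporters, the lysosomal and mitochondrial member SLC29A3 (ENT3) was much dimmer after zebularine. Its probe set 219344_at stood at 58.1, 123 and 164 signal units in zebularine cultures, against 432, 367 and 459 in untreated cultures. No treated array reached an untreated one, and zebularine 1 lay under the filter level of 78.6. The means were 115 ± 53.4 in zebularine and 419 ± 47.0 in untreated cultures (SD, n = 3 each), 3.65-fold higher in untreated cultures. Within experiments 1, 2 and 3 the untreated signal was 7.44, 2.99 and 2.80 times the treated one. The log2 difference was -1.82 ± 0.36, the 41st lowest of 13545.

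Of the plasma membrane transporters only SLC29A1 was bright enough to test, and its groups overlapped at both probe sets. SLC29A1 (ENT1), the main surface carrier of adenosine in many cells, stood at 124, 178 and 339 signal units in zebularine and 141, 121 and 205 in untreated cultures at 201801_s_at. The groups overlapped, with a log2 difference of 0.34 ± 0.40. Its other probe set, 201802_at, gave 0.10 ± 0.49, with 107, 76.2 and 114 units in zebularine and 79.1, 161 and 54.5 in untreated cultures. SLC29A2 (ENT2) was too dim to test at its probe set 204717_s_at, with 6.9, 27.4 and 61.0 units in zebularine and 7.0, 7.1 and 15.1 in untreated cultures. Signals at that level are noisy and no difference is read from them.

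ADORA1 and ADORA2B, which act on cAMP in opposite directions, lay on opposite sides of 0. Only ADORA1 at 205481_at had groups that did not overlap, and ADORA2B did not pass the fit. ADORA1, at 205481_at, stood at 175, 223 and 356 signal units in zebularine cultures, against 811, 573 and 1150 in untreated cultures. All treated arrays lay below all untreated ones, with means of 251 ± 93.4 in zebularine and 844 ± 290.1 in untreated cultures (SD, n = 3 each), 3.36-fold higher in untreated cultures. Within experiments 1, 2 and 3 the untreated signal was 4.62, 2.56 and 3.23 times the treated one. The log2 difference was -1.68 ± 0.33, the 63rd lowest of 13545.

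The second ADORA1 probe set, 216220_s_at, was dimmer and moved less. It stood at 146, 74.6 and 149.6 signal units in zebularine and 175, 134 and 238 in untreated cultures. The treated array was dimmer in all 3 experiments, the groups overlapped, and the log2 difference was -0.53 ± 0.39. The size of the ADORA1 difference therefore depends on the probe set, while its sign is shared.

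ADORA2B, the low-affinity receptor, stood at 926, 1793 and 1296 signal units in zebularine cultures, against 591, 699.7 and 929 in untreated cultures, at 205891_at. Only zebularine 1 and untreated 3 overlapped, and by a few units. The treated array was 1.57, 2.56 and 1.40 times as bright in experiments 1, 2 and 3, and the log2 difference was 0.81 ± 0.29. It did not pass the fit, with or without the experiment as a block. ADORA2A is not described here, since no probe set carries its symbol alone.

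**Figure D3:**
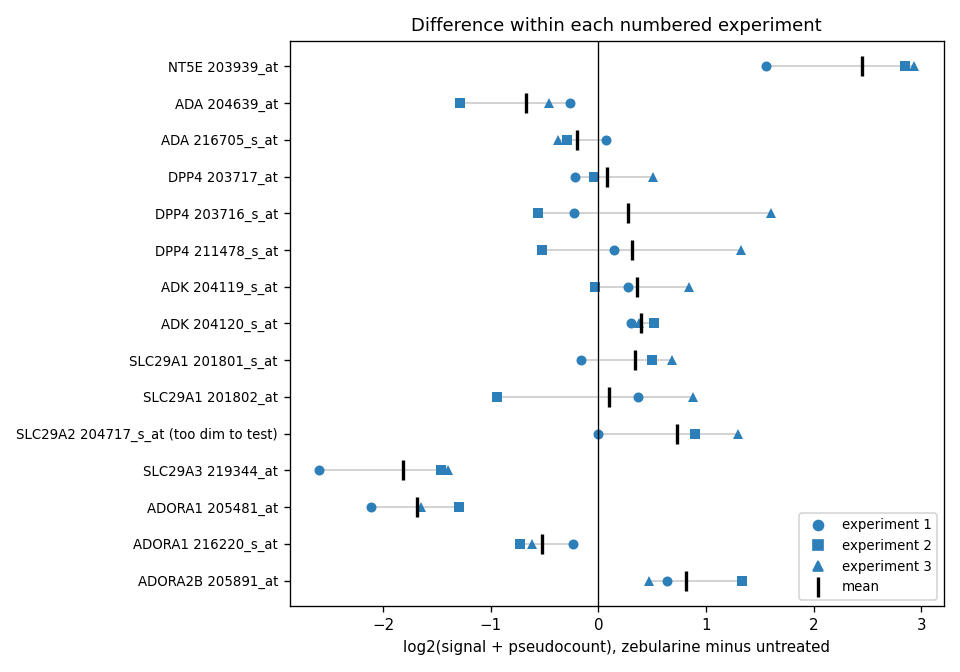
Log2 difference of zebularine minus untreated within each numbered experiment (marker shapes) and their mean (black bar) for the 15 probe sets, top to bottom as production, breakdown, transport and receptor genes. NT5E lies right of 0 in all 3 experiments (1.56 to 2.93), SLC29A3 (-2.59 to -1.40) and ADORA1 at 205481_at (-2.11 to -1.30) lie left of it, and the DPP4 probe sets cross 0.

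Of the 15 probe sets 14 passed the filter on dim values, and 3 of these passed limma at a Benjamini-Hochberg adjusted p under 0.05, NT5E higher and SLC29A3 and ADORA1 (205481_at) lower. Over all tested probe sets 0.62% passed, 0.325% higher and 0.295% lower. The same 3 were those whose groups did not overlap, as was the case for 17.6% of all tested probe sets (8.71% higher, 8.88% lower). They also passed when the experiment was added as a block, where 4.22% of all did (1.9% higher, 2.32% lower). The difference had the same sign in all 3 experiments at 7 of the 14, and at 42.7% of all tested probe sets. Since the genes were chosen with this contrast known, nothing is read from these counts. The median log2 difference was 0.19 over the 14 and -0.01 over all tested probe sets, and by experiment it was -0.05, -0.41 and 0.49 over the 14.

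The calls of the 3 large differences depended on the alternative. Since the genes were chosen by these same differences, how often each passed is a description and no support for it. Their signs could not turn when an array was left out, since the groups do not overlap. NT5E passed in 6 of 7 alternatives that used all arrays and in 5 of 6 that left out 1 array, the exceptions being the fit without limma's mean-variance trend and the one without zebularine 2. ADORA1 passed in 3 of 7 and 1 of 6, and SLC29A3 in 2 of 7 and 0 of 6. The fits that left out 1 array did not use the pairing by experiment. With the experiment as a block and 1 whole experiment left out, NT5E and ADORA1 passed in 3 of 3 and SLC29A3 in 2 of 3. Leaving out 1 array moved the NT5E difference between 2.22 and 2.79, that of SLC29A3 between -2.09 and -1.45, and that of ADORA1 between -1.95 and -1.44.

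**Figure D4:**
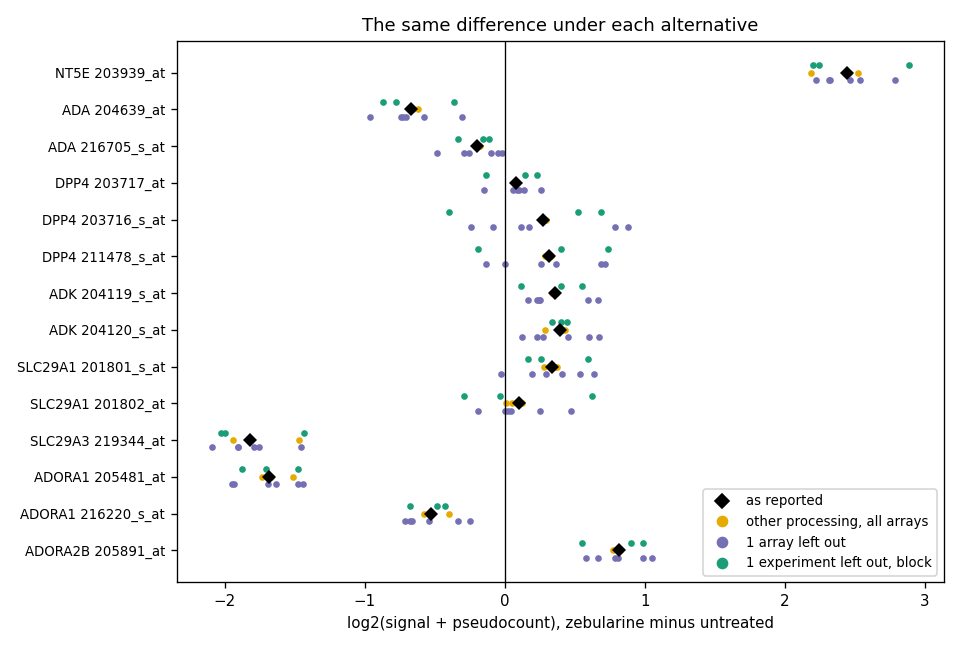
Log2 difference of zebularine minus untreated for the 14 tested probe sets as reported (black) and under other processing of all arrays (yellow), with 1 array left out (purple) and with 1 experiment left out and the rest blocked (green). NT5E keeps to 2.18 to 2.89, and SLC29A3 and ADORA1 at 205481_at stay below -1.4, while the probe sets of DPP4 and SLC29A1 cross 0.

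Around these genes, 99 others of purine handling and cAMP signalling were listed, of which 49 had a tested probe set. In limma none of the 49 passed over all probe sets, where 0.62% did. An unadjusted p under 0.05 was found for 9 of the 49, and for 1702 of all 13545 tested probe sets (12.6%). When the experiment was added as a block 3 passed, AK1 and GJA1 higher and ADCY3 lower, where 4.22% of all probe sets did. The median log2 difference of the 49 was -0.04. AK1, ADCY3 and AHCY below were picked after their values were seen.

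The upstream ectonucleotidases were mostly too dim to compare. Of 15 genes that break down extracellular nucleotides only 2 were tested, ENTPD6 at -0.21 ± 0.33 and the pyrophosphatase gene ENPP1 at 0.45 ± 0.45 on the log2 scale (limma, adjusted p = 0.842 and 0.724). All 3 probe sets of ENTPD1, whose product supplies AMP to NT5E, were removed as dim, with signals of 9.7 to 106 in zebularine and 3.6 to 98.7 in untreated cultures. The deaminase ADA2 was dim as well, at 6.9 to 13 in zebularine and 5.2 to 12.1 in untreated cultures.

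Enzymes that handle adenosine and AMP inside the cell lay on both sides of 0. Of 14 tested, none passed without the block and 5 had an unadjusted p under 0.05 (12.6% of all tested probe sets did), with a median log2 difference of -0.07. AK1, an adenylate kinase, stood at 1788 ± 115 in zebularine and 1015 ± 362 in untreated cultures (limma, adjusted p = 0.224 without the block and 0.0492 with it). AHCY, which releases adenosine from S-adenosylhomocysteine, stood at 646, 973 and 1153 signal units in zebularine cultures, against 1697, 1394 and 1878 in untreated cultures. Its groups did not overlap, and the difference of -0.86 ± 0.27 did not pass (limma, adjusted p = 0.218 without the block and 0.055 with it). The brightest members were AHCYL1, a relative of AHCY, at -0.25 ± 0.23, and HPRT1, which salvages hypoxanthine and guanine, at 0.70 ± 0.28 (limma, adjusted p = 0.706 and 0.324).

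All 4 tested genes of other nucleoside transporters and ATP release had a positive log2 difference, of 0.65 in the median. SLC28A1 and SLC28A3 lay near the filter level of 78.6, however. SLC28A1 stood at 86.9, 77.3 and 60.3 in zebularine and 83.6, 114.8 and 8.9 in untreated cultures. SLC28A3 stood at 77.6, 94.4 and 120.4 in zebularine and 11.5, 95.2 and 76.4 in untreated cultures. In experiment 2 their differences were negative, -0.49 and -0.01. GJA1, the gap junction protein connexin 43, stood at 6094, 2881 and 4099 signal units in zebularine cultures, against 2606, 2434 and 1843 in untreated cultures. It differed by 0.87 ± 0.29 (limma, adjusted p = 0.247 without the block and 0.0416 with it). PANX1, whose channels release ATP, stood at 241, 219.7 and 313 in zebularine and 114, 212 and 209 in untreated cultures, a difference of 0.53 ± 0.34 (limma, adjusted p = 0.557). The list is small and holds 9 genes. SLC28A2 was too dim to test, and SLC29A4, PANX2, PANX3 and ABCC6 had no probe set with 1 symbol.

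Of 17 other purine receptors 5 were tested and none passed in either fit. The ATP-gated channel gene P2RX4 differed by 0.29 ± 0.33 and the UDP receptor gene P2RY6 by 0.10 ± 0.29 (limma, adjusted p = 0.775 and 0.914). ADORA3, the remaining adenosine receptor, was too dim, at 18.2 to 53.7 in zebularine and 16.3 to 41.2 in untreated cultures.

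Downstream of the receptors, 16 of 22 genes for G proteins, adenylyl cyclases and cAMP-binding proteins were tested, 11 with a negative difference and a median of -0.09. ADCY3, an adenylyl cyclase that makes cAMP, stood at 303, 249 and 347 signal units in zebularine cultures, against 815, 522 and 509.5 in untreated cultures. Its difference was -0.98 ± 0.28 (limma, adjusted p = 0.178 without the block and 0.0482 with it). GNAS, the stimulatory G protein, and PRKAR1A, a regulatory subunit of protein kinase A, were the brightest, at -0.03 ± 0.28 and 0.24 ± 0.23 (limma, adjusted p = 0.98 and 0.716).

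Of 13 genes known to respond early to cAMP 8 were tested, 4 on each side of 0, and none passed in either fit. DUSP1, a MAP kinase phosphatase, differed by 0.27 ± 0.37, and SIK1, a kinase that restrains cAMP-driven transcription, by 0.77 ± 0.34 (limma, adjusted p = 0.811 and 0.385). SIK1 stood at 2023, 1704 and 1804 signal units in zebularine cultures, against 1276, 573 and 1689 in untreated cultures. Its treated arrays all lay above the untreated ones, with untreated 3 close below zebularine 2.

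**Figure D5:**
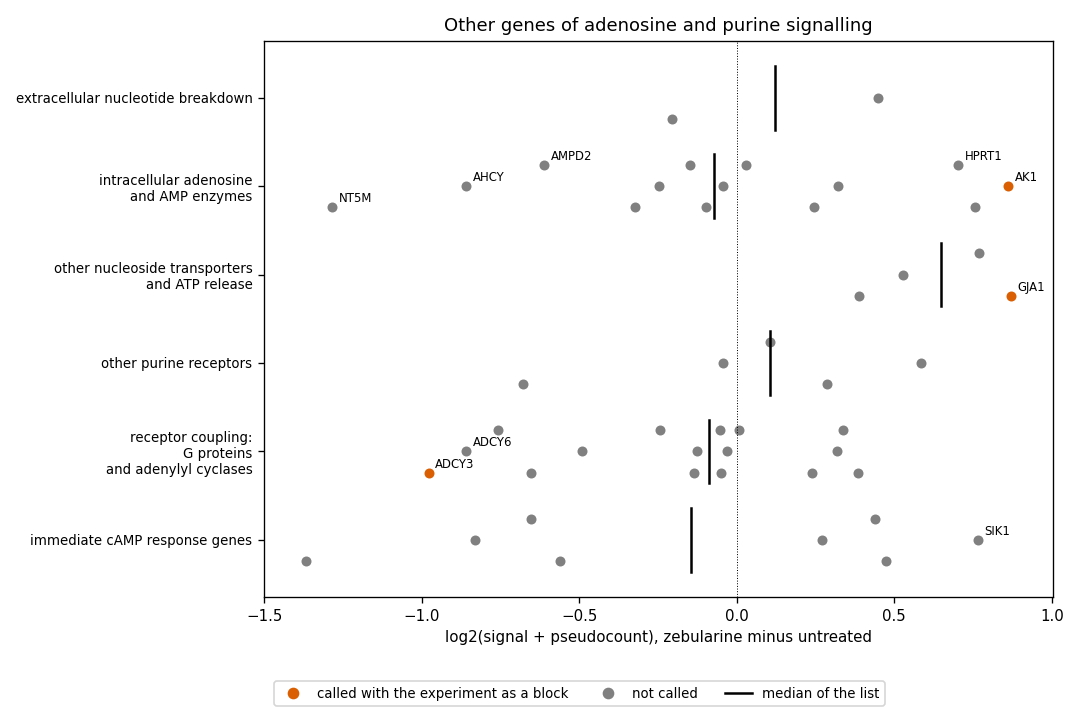
Log2 difference of zebularine minus untreated for the 49 tested genes of the 6 lists around the adenosine genes, 1 point a gene, with the median of each list as a black line and vertical offsets only to part the points. Orange points passed limma with the experiment as a block (AK1, GJA1 and ADCY3), and names are given where the unadjusted p was under 0.05.

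The genes whose signals ran most like those of the 3 large differences over the 6 arrays were found by Pearson correlation of log2 values among all tested probe sets. Nearest to NT5E were RTCA, an RNA cyclase, VCPKMT, a lysine methyltransferase, and KCNN4, a calcium-activated potassium channel, with r of 0.996, 0.988 and 0.988. KCNN4 stood at 321, 323 and 274 in zebularine and 85.1, 23.6 and 30.7 in untreated cultures, a log2 difference of 2.48, while those of RTCA and VCPKMT were 0.63 and 0.85. Nearest to ADORA1 were NIPSNAP1, ASL, an enzyme of the urea cycle, and LOXL2, a lysyl oxidase, with r of 0.995, 0.990 and 0.987 and differences of -0.94, -0.68 and -1.18. Nearest to SLC29A3 were GCHFR, a regulator of GTP cyclohydrolase, MAPRE3, a microtubule end-binding protein, and BANF1, a chromatin-binding protein of the nuclear envelope, with r of 0.996, 0.996 and 0.994. Their differences were -1.32, -0.89 and -1.10. These are the highest of many correlations over only 6 arrays that share 2 groups and 3 experiments, so they describe likeness of pattern and carry no p-value.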

How the data were processed

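The deposited values are linear MAS5 signal intensities, 1 per probe set and array, made by the authors with MAS5 per the submitters' processing notes; no version or setting is named there. MAS5 scales each array, and the mean between the 2nd and 98th percentile was 499.1 to 499.8 on every array. The values were not normalized again. The 62 control probe sets were left out of the tests. Signals were taken as log2(signal + 16.34), the pseudocount being the median of all values divided by 8, which understates the change of dim genes. Probe sets were tested if their signal reached 78.6, the 40th percentile, on at least 3 of 6 arrays, which 13545 did. The contrast was fitted in R 4.3.3 using limma 3.58.1 (lmFit, then eBayes with its trend, two-sided, Benjamini-Hochberg over all tested probe sets). The pairing of arrays by experiment entered only the fits described as having a block. With the block the standard error was smaller at every tested member probe set, 0.31 for SLC29A3 and 0.25 for ADORA1 at 205481_at. Such p-values measure the spread between cultures of 1 line. The fit was also run on simulated data with independent errors drawn from the same model. These data lacked the pairing of the arrays, so that run checked the code only.

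Symbols came from the platform annotation (19070 probe sets with 1 symbol, 1043 with several, 2164 with none). Each listed gene was taken by its probe set of highest mean signal, and levels of different probe sets were not compared. Named are all members, per list the called genes or else the 2 brightest tested, and the 3 most correlated genes of NT5E, ADORA1 and SLC29A3. The members and lists were chosen with earlier results of these data known. The experiment numbers pair the arrays: the labels share an experiment name, and deviations from group means correlated at 0.323, 0.21 and 0.272 for same-numbered arrays. No 2 arrays shared over 0.198% of equal values. Alternatives changed the normalization, pseudocount, filter, trend, block, arrays used and the choice of probe set per gene. Plots used Python 3.11.15 and matplotlib 3.10.9.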

Additional observations from a re-analysis of the deposited data

How the results depend on the processing

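The number of arrays and the dimness of many probe sets limit every count. Limma called 84 of all tested probe sets and 3 member probe sets. These became 64 and 1 after quantile normalization, 55 and 1 with a pseudocount of 4.08, 95 and 3 with one of 65.35, 42 and 1 without the filter, 66 and 2 with a stricter filter at 130.7, and 6 and 0 without the trend, where 1532 probe sets had an unadjusted p under 0.05. With the replicate block they were 572 and 3, and with the block and without replicate 1, 2 or 3 they were 194, 1023 and 335 and 2, 3 and 3. Leaving out 1 array gave 0 to 96 and 0 to 2. Both counts were 0 without zebularine 2, where 1315 probe sets had an unadjusted p under 0.05, and the overall count was 15 without zebularine 3, 16 without untreated 1 and 14 without untreated 3. The pathway count of 0 in limma (9 genes at an unadjusted p under 0.05, as against 12.6% of all tested probe sets) was 3 with the block and 1, 5 and 2 with the block and without replicate 1, 2 or 3. It was 0 in the other alternatives, averaging of probe sets included. Of 223 recomputed member differences 222 moved by less than the spread between replicates. Many of these could not do otherwise. A change of filter, trend or block alone leaves a difference as it is, and leaving out 1 of 3 arrays cannot shift it beyond that spread. The count is therefore no evidence of stability. The exception among the 223 was SLC29A1 at 201802_at, which was 0.62 with the block and without replicate 2. The cause of these changes was not tested.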

Other observations

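Probe set 205013_s_at is annotated to 2 symbols, ADORA2A and the read-through transcript SPECC1L-ADORA2A, so it was left out of the members. It stood at 151, 123 and 195 signal units in zebularine cultures of experiments 1, 2 and 3, against 91.9, 164 and 82.1 in untreated cultures. The groups overlapped, with a log2 difference of 0.45 ± 0.40 (standard error, limma).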
